A study of Mus musculus with 6 samples.

Results

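The genes of 10 cytokines that activated T cells can secrete were followed in CD8+ T cells (CD8-TC) that had been activated and grown with IL-2, from spleens of WT and Runx3-/- mice. They are the interferon gene Ifng, the interleukin genes Il2, Il3, Il4, Il10, Il13 and Il21, the GM-CSF gene Csf2, and the leukemia inhibitory factor and oncostatin M genes Lif and Osm. The members were chosen by name, as the rows of the array table whose gene symbol was exactly one of these 10 among the 19938 genes that had such a row. Every member had a row. Of the 10 cytokine genes, 7 lay below the median of the whole table on every array, and none of the 3 that could be tested passed the test between genotypes. Osm lay above that median on every array, while Ifng and Lif stood high on 1 WT array and near or below the median on most of the others.

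T cells that meet antigen switch cytokine genes on through NFAT, AP-1 and NF-kappa B proteins, and most of these messages decay again within hours once the receptor signal stops. Interferon gamma is the signature cytokine of cytotoxic T cells, while IL-4 and IL-13 belong to the Th2 programme of CD4+ T cells. Runx3 is the Runt-domain factor of cytotoxic lymphocytes, and Runx proteins with T-bet are known to take part in the switching on of Ifng and the silencing of Il4 in T cells.

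Each array held total RNA of CD8-TC from the spleen of 1 mouse of the ICR strain, 6 weeks old and labelled male, 3 of genotype Runx3 +/+ (WT1 to WT3) and 3 of genotype Runx3 -/- (KO1 to KO3). All cells had been TCR-activated for 2 days on plate-bound anti-CD3 with soluble anti-CD28 and then kept for 4 days in medium with human IL-2 at 100 units per ml, so the RNA was taken after the receptor signal had been withdrawn. The labels name no Cre and no tissue to which the Runx3 deletion would be restricted. Both groups were selected on anti-CD8 beads, but the Runx3-/- cells alone were further sorted, to take out dendritic cells that carry CD11c and, once cultured, T cells with CD4 but no CD8. The sort and the genotype therefore cannot be told apart.

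The values were log2 expression values normalised by RMA, a method that compresses low values, and they carried no calls of which genes were detected. The median of all values, 4.26, served as the line below which a gene was called dim. Of all genes, 10021 reached it on at least 1 array and were tested, and 9917 were dim on every array. The medians of single arrays ran from 4.15 to 4.35. Runx3 itself read 8.73 ± 0.45 (SD, n = 3) in WT and 9.10 ± 0.18 in the Runx3-/- arrays, with an adjusted p of 0.521 in limma, so this row did not check the genotype labels, and the groups are named by their labels throughout. WT1 read 10.6 for Xist and 3.93 for the Y-linked Eif2s3y, against its male label, while the other 5 arrays read 3.31 to 3.40 and 9.24 to 9.39. In bulk RNA, fewer cells of a type and less RNA per cell cannot be told apart.

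The upstream sequences are shown for 3 members, Ifng and Lif, which varied most between arrays, and Csf2, whose groups did not overlap as deposited. The motif that Runx proteins bind was searched as TGTGGT and, besides this form, as TGTGGC. It was also searched as TGCGGT and, in its last form, as TGCGGC. The AP-1 motif was searched as TGANTCA. All of these letters were searched on both strands of the 250 bases before the RefSeq start (mouse build GRCm38.p6, a C57BL/6J genome, while these mice were ICR), and matches are in capitals. No other letters are marked, and the RUNX and AP-1 matches do not overlap. Ifng on chromosome 10 (chr10:118440796-118441045, plus strand) held 1 RUNX match, TGTGGC on the opposite strand, at bases -158 to -153. Lif on chromosome 11 (chr11:4257318-4257567, plus strand) held a RUNX match at -102 to -97 and an AP-1 match at -228 to -222. Csf2 on chromosome 11 (chr11:54249900-54250149, minus strand) held neither.
Ifng: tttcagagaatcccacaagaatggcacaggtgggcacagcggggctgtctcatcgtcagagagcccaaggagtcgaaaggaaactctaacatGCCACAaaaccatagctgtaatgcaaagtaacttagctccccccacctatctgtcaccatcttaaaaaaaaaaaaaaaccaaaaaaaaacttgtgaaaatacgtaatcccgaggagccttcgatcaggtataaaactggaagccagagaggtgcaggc
Lif: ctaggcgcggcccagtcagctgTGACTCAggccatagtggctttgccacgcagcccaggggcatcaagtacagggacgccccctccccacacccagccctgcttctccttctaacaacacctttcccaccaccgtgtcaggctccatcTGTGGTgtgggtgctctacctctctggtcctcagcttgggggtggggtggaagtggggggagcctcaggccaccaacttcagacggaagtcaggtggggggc
Csf2: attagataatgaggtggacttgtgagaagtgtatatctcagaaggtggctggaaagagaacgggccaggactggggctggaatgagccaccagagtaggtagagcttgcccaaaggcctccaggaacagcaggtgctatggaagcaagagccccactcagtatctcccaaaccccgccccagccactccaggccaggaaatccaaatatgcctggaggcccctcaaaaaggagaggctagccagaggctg
Promoters were listed for 8 members in 9 windows, and not for Osm and Il10. A RUNX match stood in 5 of the 9 windows, those of Ifng, Lif, Il2, Il3 and Il13, against 38% of all 32851 promoter windows. Il3, whose groups did not overlap as deposited either, held 2 RUNX matches. An AP-1 match stood in 1 window, that of Lif, against 6.75% of all windows. Several members are neighbours in the genome. Osm and Lif, Il4 and Il13, and Csf2 and Il3 are adjacent pairs on chromosome 11 with no protein-coding gene between them, and Il2 and Il21 are such a pair on chromosome 3.

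Ifng encodes interferon gamma, which activates macrophages and raises antigen presentation. Its log2 values were 3.89, 7.27 and 4.06 on WT1, WT2 and WT3, and 4.27, 4.13 and 4.34 on KO1, KO2 and KO3. WT2 alone carried a high value, and the other WT arrays both lay below all 3 Runx3-/- arrays. The mean was 5.07 ± 1.90 (SD, n = 3) in WT and 4.25 ± 0.10 in Runx3-/-, a log2 difference of -0.83 (Runx3-/- minus WT, as all differences here), or 1.77-fold lower. The standard error of 0.84 was as large as the difference, the 95% interval ran from -2.82 to 1.16, and limma gave an unadjusted p of 0.359 and an adjusted p of 0.678. Without WT2 the difference turned to 0.27 (SE 0.15, 95% interval -0.09 to 0.63, unadjusted p = 0.113 in limma), and without WT1 it was -1.42. The Ifng difference thus took its direction from 1 array.

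Lif encodes leukemia inhibitory factor, a cytokine of the IL-6 family. It read 3.81, 5.36 and 3.47 in WT and 4.30, 3.38 and 3.48 in Runx3-/-, in the same order of arrays. WT2 was again the highest, KO1 came next, and both lay above the table median while the other 4 arrays did not. The means were 4.21 ± 1.01 (SD, n = 3) and 3.72 ± 0.50, with a difference of -0.49 (SE 0.51, 95% interval -1.69 to 0.71, limma unadjusted p = 0.365, adjusted p = 0.680). Without WT2 it was 0.08, with an interval from -0.68 to 0.85, and without WT1 it was -0.69.

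Osm, the neighbour of Lif in the genome and a cytokine of the same family, read 5.85, 5.91 and 5.51 in WT and 5.58, 5.14 and 5.45 in Runx3-/-. It was the only member above the table median on all 6 arrays. The groups overlapped, since KO1 lay above WT3. The means were 5.76 ± 0.22 (SD, n = 3) and 5.39 ± 0.22, a difference of -0.37 (SE 0.18, 95% interval -0.80 to 0.06), or 1.29-fold lower, with an adjusted p of 0.408 in limma (unadjusted p = 0.0803). Unlike Ifng and Lif, Osm kept its sign with any single array left out, between -0.49 and -0.24. It was -0.32 without WT1 and -0.29 without WT2.

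**Figure D1:**
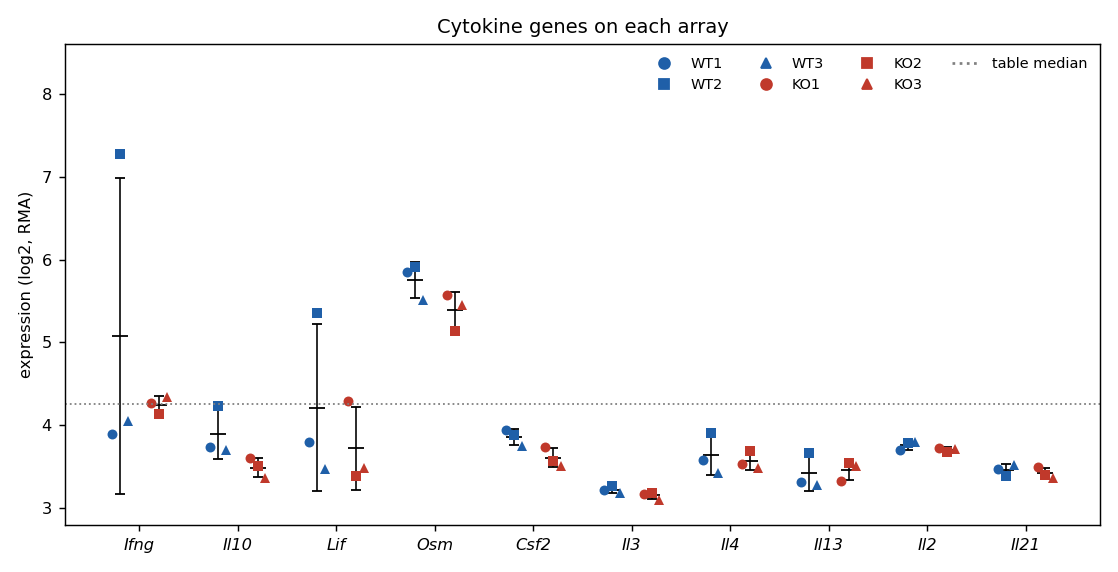
Log2 expression (y axis, RMA) of the 10 cytokine genes (x axis) on the 3 WT arrays (blue) and 3 Runx3-/- arrays (red), with symbols for the replicate number, black bars for the mean and SD of each group, and a dotted line for the table median of 4.26. WT2 stood far above the other arrays for Ifng (7.27) and Lif (5.36), Osm lay above the line on all arrays, and the other 7 genes lay below it throughout.

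The other 7 members were dim on every array, with values from 3.11 to 4.23. Il10, the gene of an anti-inflammatory cytokine that effector T cells can also make, read 3.74, 4.23 and 3.71 in WT and 3.60, 3.51 and 3.37 in Runx3-/-. Csf2, which encodes the myeloid growth factor GM-CSF, read 3.95, 3.88 and 3.76 in WT and 3.74, 3.57 and 3.51 in Runx3-/-. Every WT array lay above every Runx3-/- array for both genes, and the gap was narrow for Csf2.

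Il3, the gene of a growth factor of basophils and mast cells that lies next to Csf2, read 3.23, 3.26 and 3.19 in WT and 3.17, 3.19 and 3.11 in Runx3-/-. Its groups did not overlap either, by less than 0.01 on the log2 scale. These 3 members had non-overlapping groups with Runx3-/- lower, where 4.13% of all dim genes did. The count rested on the scaling, since with quantile or median normalisation of the columns Il10 was the only one of the 3 that did not overlap, with 6.46% and 13.2% of dim genes.

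In a fit without the filter on dim genes, Il10 differed by -0.40 (SE 0.16, 95% interval -0.79 to -0.01) with an unadjusted limma p of 0.0469 and an adjusted p of 0.484. Csf2 differed by -0.25 (SE 0.09, 95% interval -0.48 to -0.02), with an unadjusted p of 0.0357 and an adjusted p of 0.443. Among all dim genes, 0.797% had an unadjusted p below 0.05 with Runx3-/- lower. Neither gene reached a 1.5-fold change, at 1.32-fold and 1.19-fold lower. The Il10 difference was -0.23 without WT2 (unadjusted p = 0.0659) and -0.48 without WT1, and that of Csf2 was -0.24 (unadjusted p = 0.0820) and -0.21 (unadjusted p = 0.112). The unadjusted p of Csf2 rose above 0.05 in 5 of 12 alternatives, namely without WT1, WT2, KO2 or KO3 and without both WT2 and KO2. That of Il10 did so in 8 of 12, among them quantile normalisation (0.0629), median normalisation and the replicate block (0.0514), and reached 0.132 without KO3.

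The remaining dim members showed little difference between genotypes. Il2, the gene of the growth factor that was itself added to these cultures as human protein, read 3.70, 3.79 and 3.80 in WT and 3.73, 3.68 and 3.71 in Runx3-/-, a difference of -0.06 (interval -0.22 to 0.11). Its neighbour Il21, a gene of follicular helper T cells, read 3.48, 3.39 and 3.52 against 3.49, 3.40 and 3.37, a difference of -0.04 (interval -0.22 to 0.14). The Th2 genes Il4 and Il13 were dim on all arrays too. Il4 read 3.58, 3.90 and 3.43 in WT and 3.53, 3.69 and 3.49 in Runx3-/-, with a difference of -0.07 (interval -0.40 to 0.26), which was 0.06 without WT2. Il13, which acts through a receptor that shares a chain with that of IL-4, read 3.32, 3.67 and 3.28 against 3.33, 3.55 and 3.51, the only member with a higher Runx3-/- mean, by 0.04 (interval -0.27 to 0.35), and that sign turned under median normalisation (-0.03) and without WT1 (-0.01), and also with WT3 or KO2 left out. On a dim row an interval bounds the array value and not the amount of message.

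**Figure D2:**
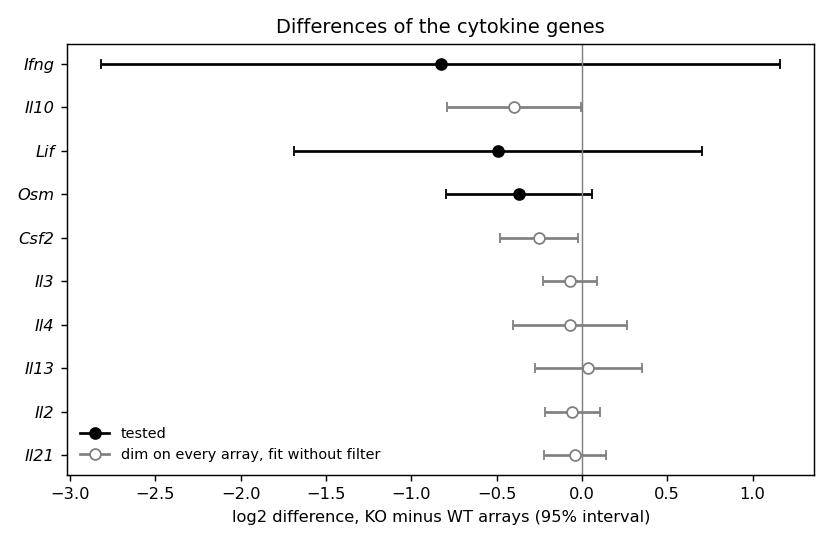
Log2 difference, Runx3-/- minus WT (x axis), of each cytokine gene (y axis) with its 95% interval from limma on 3 against 3 arrays. Filled points are the 3 tested genes, and open points are the 7 dim genes in a fit without the filter. The interval of Ifng ran from -2.82 to 1.16, and those of Il10 and Csf2 ended just below 0.

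Of the 3 tested members, 0 passed an adjusted p of 0.05 in limma, where 0.629% of all tested genes did, and 0 had an unadjusted p below 0.05. The cut-off named in the study's methods asks for 1.5-fold, a p under 0.05 and signal above background on at least 1 array. It was read here as an unadjusted p, with the table median in place of the background, and 0 members met it, against 4.33% of tested genes lower and 3.97% higher in Runx3-/-. The median difference was -0.49 over the 3 tested members and -0.01 over all tested genes, and the first of these was 0.08 without WT2. Over all 10 members it was -0.16, and over the 7 dim members -0.07 beside 0.00180 over all dim genes. The Runx3-/- mean was the lower one for 9 of the 10 members, while this held for 52.0% of tested and 48.9% of dim genes. This count rested partly on WT2, since without it Ifng, Lif and Il4 turned above 0, at 0.27, 0.08 and 0.06.

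**Figure D3:**
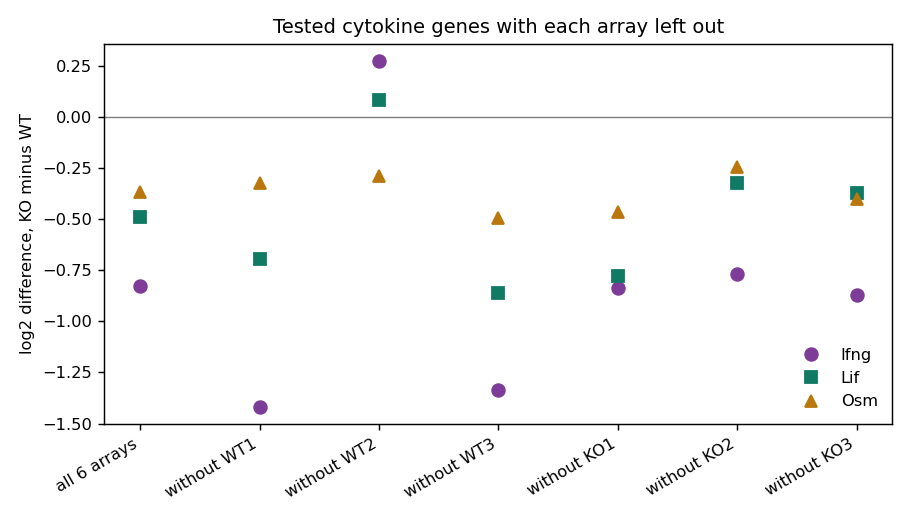
Log2 difference, Runx3-/- minus WT (y axis), of Ifng, Lif and Osm with all 6 arrays and with each array left out in turn (x axis). Without WT2 the points of Ifng and Lif moved above 0, to 0.27 and 0.08, while Osm stayed below 0 in every column.

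WT2 gave the highest value for 7 of the 10 members. It did so for the 3 tested members, where 23.6% of all tested genes had WT2 highest, and for 4 of the 7 dim members, Il3, Il4, Il10 and Il13, against 19.9% of dim genes. The count was 8 with quantile and 9 with median normalisation, under which the share of dim genes was 28.4% and 64.9%. KO2 was highest for 0 of the 7 dim members, beside 43.6% of dim genes, and for 0 of the 3 tested members. Its share over all tested genes was not counted. The gap of Ifng on WT2 over the next array was 2.93, and 2 tested genes, Ifng and Klra5, had a gap of that size. That of Lif was 1.06, and 46 tested genes, or 0.459%, had at least as large a gap.

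The genes nearest to Ifng in pattern were sought among the tested genes as those with the smallest root mean square (RMS) difference over the 6 arrays after each gene was centred on its own mean. Tgfb3, a gene of the TGF-beta family, read 6.08 on WT2 and 3.47 to 3.84 on the other arrays (RMS difference 0.274). Klra5, a member of the Ly49 receptor family of NK cells, read 7.22 on WT2 and 3.45 to 3.88 elsewhere (0.311). Xcl1, the gene of the chemokine lymphotactin that activated CD8-TC secrete, read 6.81 on WT2 and 3.75 to 4.31 elsewhere (0.336). All 3 followed Ifng in being high on WT2 and near or below the table median on the rest. For Lif the nearest were Pno1, Smyd5 and Ctps, with RMS differences of 0.140, 0.156 and 0.160, and each was highest on WT2 and next highest on KO1. The search picked genes by their pattern over these same arrays, so their likeness to Ifng and Lif is no separate result.

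Of the 8 tested genes in a list of other secreted cytokines, WT2 was the highest array for 3 (Tnf, Lta and Mif) and the lowest for 3 (Ltb, Il16 and Ebi3), where it was the highest for 23.6% and the lowest for 28% of all tested genes. The genes that follow were named after their values were seen. Tnf, the gene of tumor necrosis factor, read 7.91 on WT2 and 5.88 to 6.65 on the other arrays. Lta, the gene of lymphotoxin alpha, read 6.03 on WT2 and 4.34 to 4.93 elsewhere. The transcription factor gene Maf, whose product acts on Il4 and Il10, read 5.01 on WT2 and 3.90 to 4.30 elsewhere. Iigp1, an immunity-related GTPase induced by interferon gamma, went the other way, with 4.60 on WT2 and 8.86 to 9.48 on the other 5 arrays, and Gbp5, a guanylate-binding protein gene of the same response, read 6.50 on WT2 and at least 7.43 elsewhere. Over the 12 tested interferon gamma targets, WT2 was the lowest array for 7 and the highest for 1, Socs1, at 5.97 against 5.58 to 5.89 elsewhere. Among the NK and innate lymphoid markers, WT2 was the highest array for 1 of 4 tested genes, Klrb1b, against 23.6% of all tested genes. It was also the highest for the 2 dim ones, Tyrobp and Ncr1, against 19.9% of all dim genes. Klrb1b read 4.45 on WT2 and 4.01 to 4.16 elsewhere. Tyrobp read 4.17 on WT2 and from 3.59 upwards elsewhere, and Ncr1 3.51 against 3.30 to 3.49. For Tyrobp and Ncr1, WT3 came next, and every WT array lay above every Runx3-/- array (differences -0.40 and -0.13). Among all dim genes, 4.13% had groups that did not overlap with Runx3-/- lower. That share was 6.46% with quantile and 13.2% with median normalisation. Rora was highest on KO3, and WT2 was the lowest WT array for Eomes. Klrb1c read 5.66 on WT2, 4.34 and 5.94 on WT1 and WT3, and 3.74 to 3.77 on the Runx3-/- arrays. The part of other cells or of the state of the WT2 culture in these values was not tested.

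**Figure D4:**
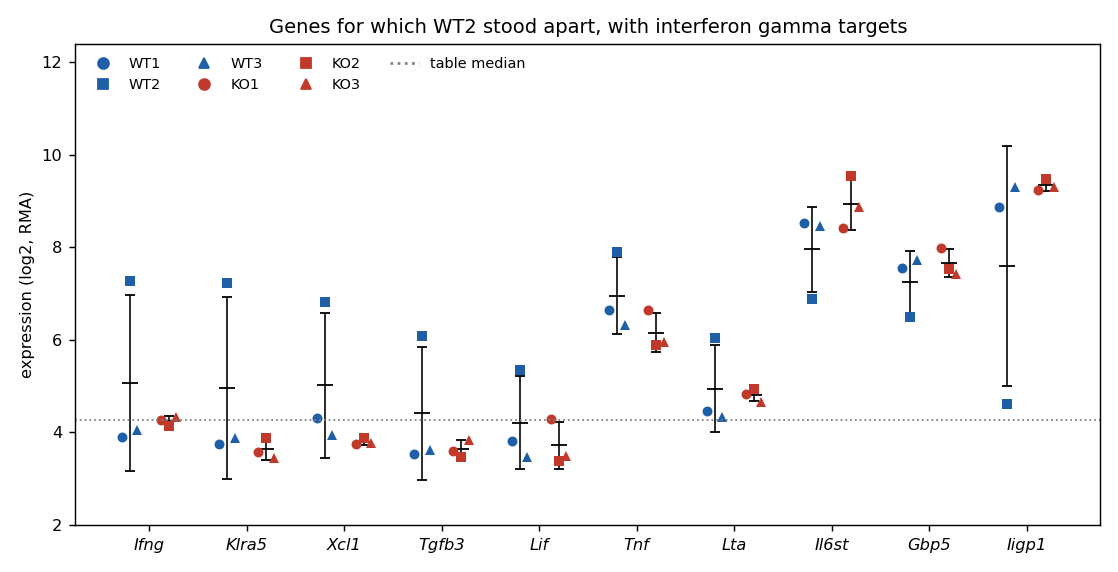
Log2 expression (y axis, RMA) of Ifng and its 3 nearest genes in pattern, of Lif, and of further genes chosen after their values were seen (x axis), on WT (blue) and Runx3-/- (red) arrays with symbols, bars and dotted line for the replicate number, group mean with SD, and table median. WT2 (blue square) was the highest array for Ifng, Klra5, Xcl1, Tgfb3, Lif, Tnf and Lta, and the lowest for Il6st, Gbp5 and Iigp1.

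The receptor chains of the 10 cytokines were read in the same fit. Of 18 genes, 17 had a row, 11 were tested and 0 passed an adjusted p of 0.05 in limma. The study's threshold was passed by 2, both higher in Runx3-/-, beside 3.97% of all tested genes. Ifngr2, the signalling chain of the interferon gamma receptor, read 6.55, 6.44 and 7.32 in WT and 7.53, 7.93 and 7.50 in Runx3-/-, so that the mean was higher by 0.88 (SE 0.26, adjusted p = 0.232). Il4ra, the chain shared by the receptors of IL-4 and IL-13, read 9.71, 9.18 and 10.1 in WT and 10.3, 10.8 and 10.6 in Runx3-/-, higher by 0.87 (SE 0.26, adjusted p = 0.236). The groups did not overlap for either chain. The share of all tested genes without overlap was not counted, so this is not read as a result. WT2 was the lowest array for both, as for 28% of all tested genes.

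The median difference of the tested chains was -0.00596, beside -0.0145 over all tested genes. Ifngr1 lay between 10.8 and 11.3, and the IL-2 receptor chains Il2ra and Il2rb lay between 9.69 and 10.6. Their differences were -0.06, -0.30 and -0.03, and none passed. Il6st encodes gp130, the chain shared by the receptors of LIF and oncostatin M, and read 6.89 on WT2 and 8.43 to 9.54 elsewhere (difference 0.98, adjusted p = 0.410). The chains that confer specificity for these ligands, Lifr and Osmr, were dim on every array, as were Il13ra1, Il13ra2 and the beta chain genes Csf2rb and Csf2rb2.

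**Figure D5:**
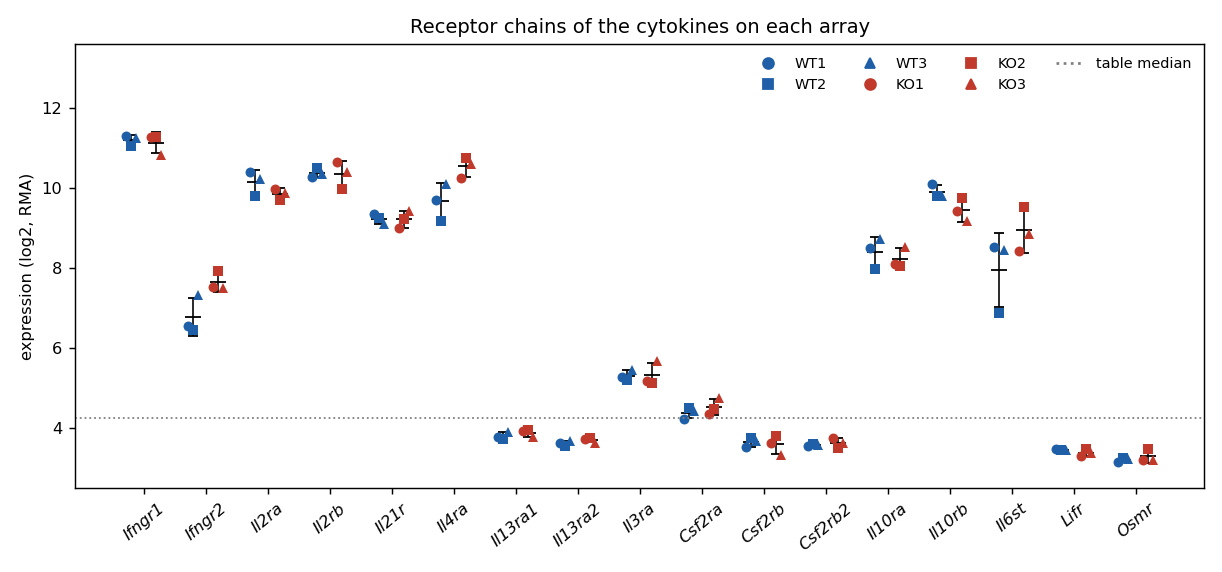
Log2 expression (y axis, RMA) of the 17 receptor chain genes with a row (x axis) on WT (blue) and Runx3-/- (red) arrays, with black bars for group mean and SD and a dotted line for the table median. The Runx3-/- means of Ifngr2 and Il4ra were higher by 0.88 and 0.87. The genes Lifr, Osmr, Csf2rb, Csf2rb2, Il13ra1 and Il13ra2 lie below the line on all arrays.

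Other secreted cytokines resembled the 10 members in being mostly dim. Of 26 genes with a row, 18 were dim on every array, among them the Th2 gene Il5 (3.19 to 3.64) and the Th17 gene Il17a (3.70 to 4.07). Of the 8 that were tested, 0 passed either threshold, and their median difference was -0.08. Ltb, the gene of lymphotoxin beta, was the only 1 with an unadjusted p below 0.05, with values of 9.92 to 10.1 in WT and 10.3 to 10.7 in Runx3-/- (difference 0.39, SE 0.16, adjusted p = 0.354).

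Among 22 tested transcription factors that act on cytokine genes, 0 passed an adjusted p of 0.05 in limma, while 8 had an unadjusted p below 0.05, beside 14.1% of all tested genes. Of these, 3 passed the study's threshold higher and 3 lower in Runx3-/-, beside the 3.97% and 4.33% given above. Gata3, the Th2 regulator that activates Il4 and Il13, read 7.35 ± 0.28 (SD, n = 3) in WT and 8.40 ± 0.48 in Runx3-/- (difference 1.06, SE 0.27, adjusted p = 0.176). Both of its target genes stayed dim on all 6 arrays. Ets1 differed by 0.75 (adjusted p = 0.245), Irf4, a factor induced by T cell receptor signals, by -1.02 (adjusted p = 0.256), and the AP-1 subunit Fosl2 by -0.98 (adjusted p = 0.257). Tbx21, which encodes T-bet and acts on Ifng, read 6.61, 7.18 and 6.84 in WT and 7.50, 6.63 and 7.53 in Runx3-/- (difference 0.34, adjusted p = 0.597). WT2 was the highest of the WT arrays for Tbx21, but KO1 and KO3 lay above it.

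The 9 genes of proteins that bind and mostly destabilise cytokine messages, such as tristetraprolin and the roquins, were all tested, and 0 passed either threshold or had an unadjusted p below 0.05. Their median difference was 0.29, and Rc3h2 (roquin-2) had the smallest p (difference 0.31, adjusted p = 0.508). Of 12 tested interferon gamma targets, 0 passed either threshold, with a median difference of 0.19. Gbp4, a guanylate-binding protein gene, was the only 1 with an unadjusted p below 0.05 and read 10.4 to 10.6 in WT and 10.9 on every Runx3-/- array (difference 0.39, SE 0.12, adjusted p = 0.255). The chemokine genes Cxcl9 and Cxcl10, further targets of interferon gamma, were dim on all arrays.

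The cell type markers went with the label of CD8-TC. Cd8a lay between 10.7 and 11.5 (difference -0.30, adjusted p = 0.554), and the log2 of the summed linear levels of 6 CD8 T cell markers ran from 13.5 to 13.7 in WT and from 13.4 to 13.8 in Runx3-/-. Markers of CD4 T cells, the main source of several of these cytokines, were partly higher in Runx3-/-, where Cd4 differed by 0.95 (adjusted p = 0.250) and Zbtb7b, the gene of the CD4 lineage factor ThPOK, by 0.64 (adjusted p = 0.342). Both passed the study's threshold, out of 3 tested among 5 CD4 markers, beside 3.97% of all tested genes higher in Runx3-/-. The other tested marker, Foxp3, differed by -0.32. The summed level of the 5 was 7.49 to 7.84 in WT and 7.79 to 8.36 in Runx3-/-. The study names Cd4 and Zbtb7b among genes considered Runx3 targets. More CD4 T cells and a changed level within CD8-TC therefore cannot be told apart for them. The markers of this list that were not tested, Cd40lg and Cxcr5, were dim on all arrays, with differences of -0.00264 and 0.23.

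The other lists had few tested genes. Of 6 NK and innate lymphoid markers with a row, 4 were tested. Klrb1c (difference -1.56, adjusted p = 0.169) and Eomes (-1.76, adjusted p = 0.331), a factor that CD8-TC also express and that acts on Ifng, passed the study's threshold lower in Runx3-/-. Of all tested genes, 4.33% did so. The summed level was 9.34 to 9.94 in WT and 7.90 to 9.04 in Runx3-/-, a sum in which Eomes was the highest gene on every array but KO3, with 8.87 to 9.74 in WT and 5.79 to 8.69 in Runx3-/-. Ncr1, a defining marker, was dim on every array. Of 12 dendritic and myeloid markers 10 were dim, among them Itgax, which encodes CD11c. The summed level of the 12 was 7.15 to 7.33 in WT and 7.15 to 7.61 in Runx3-/-. Cd74 read 5.74 on KO1 and 3.49 to 4.24 elsewhere. H2-Eb1 had the smallest p (difference 0.39), while the dim Itgax and Itgam were lower in Runx3-/- (-0.24 and -0.55). Of 4 B cell markers with a row 3 were dim, and Cd79b passed the study's threshold lower in Runx3-/- (-0.93, adjusted p = 0.148), with a summed level of 6.29 to 6.68 in WT and 5.88 to 6.19 in Runx3-/-. Cd79b alone was lower in Runx3-/-, while the dim markers Cd79a, Ms4a1 and Pax5 differed by 0.29, 0.16 and 0.05. Mast cells and basophils respond to IL-3 and can make IL-4, and 5 of their 6 markers were dim, with a summed level of 6.21 to 6.26 in WT and 6.17 to 6.35 in Runx3-/- (Ms4a2 had the smallest p of the list, difference -0.06). The part of any of these cells in the values of the cytokine genes was not tested.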

How the data were processed

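RNA of 6 cultures was hybridised to Affymetrix mouse gene ST 1.0 arrays, 1 per mouse. As the labels and methods state, the authors normalised the scanner files by RMA in Partek, and the deposited values are log2 values. No versions were given in the sources used here. Of 35399 rows, 21789 had exactly 1 gene symbol in the platform annotation, 1621 had several and 11989 were not named here. The row with the highest mean stood for a gene. Groups came from the labels, and WT and Runx3-/- arrays were compared with limma 3.58.1 in R 4.3.3 (lmFit and eBayes, two-sided, no covariate), with Benjamini-Hochberg adjustment over the 10021 genes tested. The fit was tested on simulated data in which every array had the same spread, so arrays that stood apart were not covered. The number of arrays limits the precision. Each replicate is 1 mouse, and p-values reflect how mice and their cultures vary.

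The members and gene lists were chosen with earlier results of these data known. The text names all members and, in each other list, up to 4 genes past the study's threshold by smallest p, or else the 1 gene with the smallest p, and for members whose range over the arrays was at least 1 the 3 genes nearest in pattern. Further genes were singled out once their values had been seen. Alternatives were the filter, quantile or median normalisation, averaging the rows of a gene, the replicate block, trend and robust priors, array weights, each array left out, and WT2 and KO2 left out together. Promoters came from RefSeq. Figures were drawn with matplotlib 3.10.9.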

Additional observations from a re-analysis of the deposited data

How the results depend on the processing

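Under all 15 alternatives, 0 members passed the adjusted threshold and 0 passed the study's threshold in limma. The Ifng difference of -0.83 turned to 0.0948 with array weights (which gave WT2 a weight of 0.381 and KO2 of 0.344, against 3.10 for WT1) and to 0.33 without WT2 and KO2, and it ran from -1.42 to 0.27 with 1 array left out, where only leaving out WT2 turned it. That of Lif turned to 0.25 without WT2 and KO2 and ran from -0.86 to 0.0835 with 1 array left out, again turned by WT2 alone, and Lif was not tested under the stricter filter. The median over the tested members had the same range, -0.86 to 0.08. Osm kept its sign in all 15 alternatives (-0.17 without WT2 and KO2) and had an unadjusted p of 0.0498 with quantile normalisation, 0.0465 with array weights and 0.0428 without WT3. Ms4a2 ran from -0.16 to 0.0184 with 1 array left out and turned without KO3. The median difference over all tested genes was -0.06 with quantile and -0.08 with median normalisation, beside -0.01 as deposited. The count of all genes past the adjusted threshold was 63, and it was 36 without the filter on dim rows, 547 with array weights and 9 to 67 with 1 array left out. The count past the study's threshold, 832, ran from 651 to 1258 with 1 array left out. Where 1 array was left out, the fit pooled the spread of both groups.

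Replicate numbers were not treated as pairs. The deviations of same-numbered arrays correlated at -0.131, -0.369 and -0.133, and those of differently numbered arrays at -0.452 to 0.441. With 3 arrays per group, these correlations cannot decide whether the arrays were paired. With the replicate block 1 gene passed the adjusted threshold, and 0 members did. The causes of these changes were not tested. Values below the table median carry no detection call, so a change of the 7 dim members can be missed on these arrays.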
